A study of Mus musculus with 16 samples.

Results

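The histone genes of the replication clusters were examined in endothelial cells (ECs) sorted from mouse bone. Members were all genes whose older symbol starts with Hist and a cluster number from 1 to 4, and they made up 70 of the 40265 gene names listed across the deposited tables. Levels are given as FPKM, a measure of RNA level scaled to gene length and to the number of fragments in the library. A member was tested in a comparison where its mean over both groups reached 1 FPKM, which held for 56 members in at least 1 of 3 comparisons and for 15 members in all 3.

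The study asked how the transcriptional co-activators Yap1 and Taz (gene Wwtr1), and Lats2, a kinase that restrains them, act in bone vessels. It comprised 16 RNA-seq libraries of C57BL/6 background. In the first comparison 3 libraries of metaphyseal ECs (mpECs) were set against 3 of bone marrow ECs from the diaphyseal cavity (bmECs). These are labelled wild type, and per the study's methods they carried the Cdh5-mT/nG reporter, in which the promoter of the endothelial gene Cdh5 drives a membrane tomato protein and a nuclear green protein fused to histone H2B. Whether the reporter transcript added reads to H2B genes was not tested. In the second comparison 3 control libraries (Yap1 fl/fl, Wwtr1 fl/fl, Cdh5-CreERT2 negative) were set against 3 libraries labelled Yap1/Taz iΔEC (the same floxed alleles, Cdh5-CreERT2 positive), all from postnatal day 21. In the third, 2 control libraries (Lats2 fl/fl, Cdh5-CreERT2 negative) were set against 2 Lats2 iΔEC libraries (Lats2 fl/fl, Cdh5-CreERT2 positive). Cdh5-CreERT2 is a tamoxifen-inducible recombinase made in endothelial cells. Per the study, pups were given tamoxifen daily early in postnatal life, and littermates without Cre served as controls. For Yap1/Taz mutants studied at day 21, tamoxifen began near the end of the first week. Animals were grouped irrespective of sex, but the methods name male mice for wild-type bone. The wild-type mice were juvenile. The methods call the replicates of a group biological ones, without saying whether each library came from 1 animal, so p-values measure the spread between these samples.

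Replication-dependent histones are the proteins that package newly copied DNA. Paired copies of H2A, H2B, H3 and H4 form the core of the nucleosome, and the linker histone H1 binds where DNA enters and leaves it. The genes lie in clusters, are transcribed mainly in S phase with the co-activator Npat, and typically give mRNAs that carry no poly(A) tail. Their mRNAs end instead in a short stem-loop that is bound by the protein Slbp, which supports their processing, translation and decay. Some members can also be read through to a downstream poly(A) site, which yields a stable mRNA in cells that do not divide.

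By family the 70 members comprised 6 H1, 20 H2A, 19 H2B, 12 H3 and 13 H4 genes. Cluster 1 held 56 of them, and apart from Hist1h2al these lay on chr13:21715763-23934851 of GRCm38. Cluster 2 held 10 genes on chr3:96219865-96270132, cluster 3 held 3 genes on chr11:58948920-58956830, and Hist4h4 was the single gene of cluster 4, on chromosome 6. The annotation called 67 members protein coding and 3 pseudogenes (Hist1h2aj, Hist1h2al and Hist3h2bb-ps), and 65 members consisted of 1 exon block without introns. All 13 H4 genes shared 1 predicted protein product, and 9 H2A genes shared another. In 36 members at least 50% of all 50-base stretches of the exon also occurred in another gene, so reads of these members may have been split or dropped in counting. All 20 H2A genes overlapped a predicted gene annotated on the other strand, and the sources used here do not say whether strand was used in counting.

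The stem-loop is the sequence that sets these mRNAs apart, so each form found in the transcripts of the annotation is shown here, with the paired arms in capitals. It was searched for as a 6-base arm opening with GG, a 4-base loop opening with TT and a perfectly paired second arm. A match was found in 43 members, 21 to 58 bases after the stop codon. Of the 52 protein-coding members with at least 16 annotated bases after the stop codon, 9 had no such match.
Form in 25 members of H1, H2A, H2B and H3: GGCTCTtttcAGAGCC
Form in 6 members of H1, H2B and H3: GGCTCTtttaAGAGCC
Form in Hist2h2ac: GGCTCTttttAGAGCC
Form in 7 H4 genes: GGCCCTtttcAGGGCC
Form in Hist1h4i and Hist2h4: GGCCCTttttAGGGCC
Form in Hist1h4b and Hist1h4j: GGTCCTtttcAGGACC
The arm followed the family. All 32 matched genes of H1, H2A, H2B and H3 had GGCTCT as first arm, and of 11 matched H4 genes 9 had GGCCCT and 2 had GGTCCT.

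The promoters are shown for 1 member of each family, because the families differed in the short motifs they held while their genes tended to move together in the comparisons below. The member shown was the protein-coding gene with a RefSeq promoter called in most comparisons, then the one with the largest change, and Hist1h2ap had no RefSeq entry. The sequences are the 120 bases before the RefSeq start on GRCm38.p6, written along the strand of the gene, with motif matches in capitals. The RefSeq start lay 98, 27 and 76 bases upstream of the start in the annotation for Hist1h2ao, Hist1h3i and Hist1h4b.
Hist1h1e, H1, chr13:23622559-23622678, minus strand: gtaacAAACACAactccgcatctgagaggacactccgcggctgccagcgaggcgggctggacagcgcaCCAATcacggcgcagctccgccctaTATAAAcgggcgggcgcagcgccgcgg
Hist1h2ao, H2A, chr13:21810247-21810366, plus strand: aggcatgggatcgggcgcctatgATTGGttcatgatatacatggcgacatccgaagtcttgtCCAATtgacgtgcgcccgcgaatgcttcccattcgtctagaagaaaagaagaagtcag
Hist1h2bm, H2B, chr13:21721924-21722043, plus strand: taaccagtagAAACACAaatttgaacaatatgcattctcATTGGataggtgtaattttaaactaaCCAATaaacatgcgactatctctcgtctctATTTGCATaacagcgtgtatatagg
Hist1h3i, H3, chr13:21783398-21783517, minus strand: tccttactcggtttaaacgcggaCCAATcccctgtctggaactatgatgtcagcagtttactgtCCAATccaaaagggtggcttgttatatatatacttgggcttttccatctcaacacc
Hist1h4b, H4, chr13:23756817-23756936, plus strand: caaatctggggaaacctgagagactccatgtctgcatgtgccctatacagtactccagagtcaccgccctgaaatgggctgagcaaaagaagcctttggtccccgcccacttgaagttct
The capitals mark the H1 box (AAACACA), the CCAAT box (ATTGG on the other strand), TATAAA and the octamer ATTTGCAT. These motifs were counted on both strands in the 250 bases before the start of the 60 members with a RefSeq promoter. CCAAT was present in 6 of 6 H1, 17 of 17 H2A, 16 of 16 H2B, 8 of 9 H3 and 3 of 12 H4 promoters, against 33.9% of all 32851 promoters. The octamer was found in 7 H2A and 6 H2B promoters and in none of the other families, against 1.60% of all promoters. The H1 box was found in 5 of 6 H1 promoters, in 2 H2A and 2 H2B promoters and in no H3 or H4 promoter, against 6.25% of all. TATAAA occurred in 4 H1, 7 H2A, 8 H2B, 4 H3 and 6 H4 promoters, against 12.4% of all. A motif match describes the letters of the window and not a bound site. In 14 pairs an H2A and an H2B gene lie head to head, with starts 173 to 306 bases apart. Where both have a promoter here, 1 match can be counted for both genes, so the H2A and H2B counts are not independent.

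The libraries held 4732693 to 14756143 reads on genes, as recovered from the steps of the FPKM values, and 1 read in an exon of 500 bases was worth 0.162 to 0.530 FPKM. The 3 tables were normalized separately, and the lists of the Yap1/Taz libraries carry no unit, which was read as FPKM from these steps. Replicates of a group differed by more than counting noise in every pair. Wwtr1 was at 10.01, 9.88 and 10.3 FPKM in the controls of the second comparison and at 15.3, 19.6 and 19.5 FPKM in the libraries labelled Yap1/Taz iΔEC, which is higher and goes against the label (limma adjusted p = 0.0272). Yap1 was at 1.07, 1.62 and 0.995 FPKM in these controls and at 1.43, 1.03 and 0.989 FPKM in the labelled libraries, with overlapping groups. By quantitative PCR of freshly sorted mutant bone ECs the study itself reports less Yap1 and Wwtr1 transcript, and by immunostaining less Yap1. Lats2 was at 23.4 and 24.0 FPKM in its controls and at 19.2 and 19.2 FPKM in Lats2 iΔEC (log2 change -0.29, limma adjusted p = 0.125). A sum over the whole gene does not show the loss of single floxed exons. In such sorted samples, fewer cells of a type and less RNA per cell cannot be told apart.

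The level of the members differed far more between tables than within them. The 50 members listed in all tables and outside the lists of polyadenylated and testis genes had a median of 0.757 FPKM over the mpEC and bmEC libraries, 95.2 FPKM over the 6 Yap1/Taz libraries and 0.352 FPKM over the Lats2 libraries. Of these 50 members, 47 were higher in the Yap1/Taz table than in the mpEC and bmEC table and 42 were over 10 times higher. The 7 members known to give polyadenylated mRNA (Hist1h1c, Hist1h2bc, Hist1h2be, Hist2h2be, Hist3h2a, Hist3h2ba and Hist4h4) had medians of 7.54, 22.8 and 0.673 FPKM in the same order, and 2 of the 7 were over 10 times higher in the Yap1/Taz table. Of the 50 members, those not higher in the Yap1/Taz table were Hist1h2ap, with a mean of 86.9 FPKM in the mpEC and bmEC table and 9.59 FPKM in the Yap1/Taz table, and Hist2h2aa2 and Hist2h3c1, which were listed at 0 in both. Among the 7 polyadenylated members Hist1h2bc (33.0 and 22.8 FPKM) and Hist3h2a (11.3 and 3.46 FPKM) were also lower in the Yap1/Taz table. Summed over the listed members, the histone genes took 0.0533 to 0.153% of all FPKM of a library in the first table, 2.27 to 3.30% in the Yap1/Taz table and 0.0257 to 0.0617% in the Lats2 table. The labels name the same total RNA kit for all libraries. The list of 7 polyadenylated members was taken from general knowledge and not from these data. The cause of the gap was not tested, and levels are compared only within a table below. The 3 testis genes (Hist1h1t, Hist1h2aa and Hist1h2ba) were not tested in any comparison and had medians of 0, 0.0692 and 0 FPKM.

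**Figure D1:**
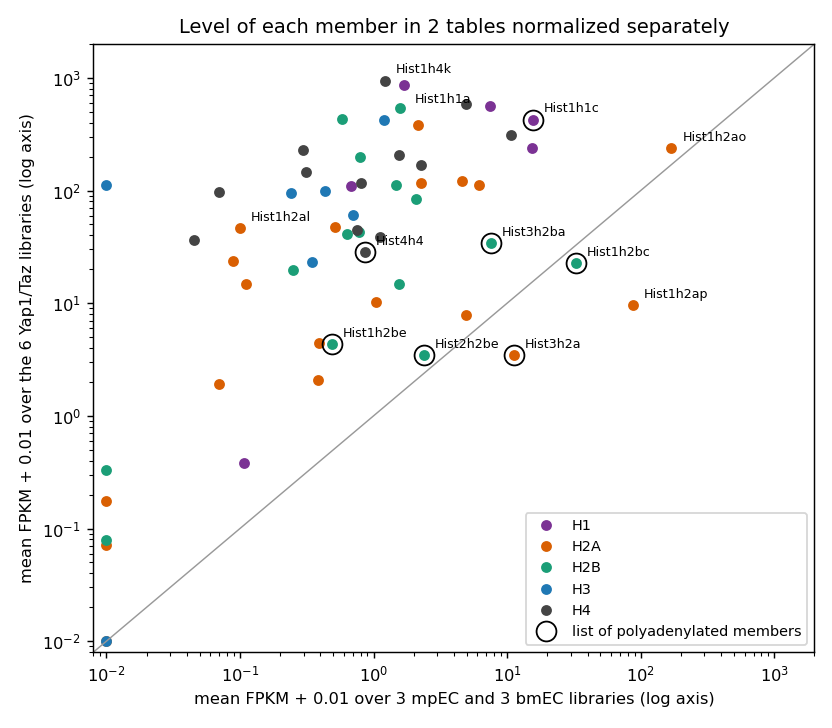
Mean FPKM plus 0.01 of each member listed in both tables, over the mpEC and bmEC libraries (x axis, log scale) and over the 6 Yap1/Taz libraries (y axis, log scale), colored by family; the line marks equal values and rings mark the 7 members known to give polyadenylated mRNA. Most points lie far above the line, while Hist1h2ap (86.9 against 9.59 FPKM), Hist1h2bc and Hist3h2a lie below it.

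Histone genes were lower in bmECs than in mpECs. Of the 70 members listed, 30 were tested, 33 lay above 0 but under the limit and 7 were at 0 in every library. Among the tested members 15 were lower in bmECs at an adjusted p under 0.05, against 10.5% of the 11422 genes tested, and 0 were higher, against 13% of all genes. At an unadjusted p under 0.05 limma gave 19 lower (16.9% of all genes) and 0 higher (19.2% of all genes), and limma voom on recovered reads called 18 lower (22.4% of all genes) and 0 higher (8.26% of all genes). The groups did not overlap in 17 members, all of them lower in bmECs (19.2% of all genes lower, 22.1% higher), and 29 of 30 log2 changes were below 0 (50.1% of all genes) and 1 was above 0 (49.9% of all genes). The median log2 change was -0.75, beside -0.00068 over all genes. The limit on mean level favours members that are high in 1 group: 9 tested members had a mean under 1 FPKM in 1 group, and the calls without them were 11 of 21. Without the first mpEC library, 8 of 25 tested members were called lower, beside 1000 of all 11377 genes tested. Of the 5 tested members known to give polyadenylated mRNA 2 were called lower, with a median log2 change of -0.57, and of the other 25 tested members 13 were called lower, with a median of -0.83.

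Summed over all 70 listed members, the level was 713, 473 and 518 FPKM in mpECs and 294, 308 and 238 FPKM in bmECs, a ratio of 0.492. Each family showed the same order without overlap, with ratios of 0.467 for H1, 0.492 for H2A, 0.479 for H2B, 0.449 for H3 and 0.587 for H4. Hist1h2ao alone made up 40.1% of the sum.

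**Figure D2:**
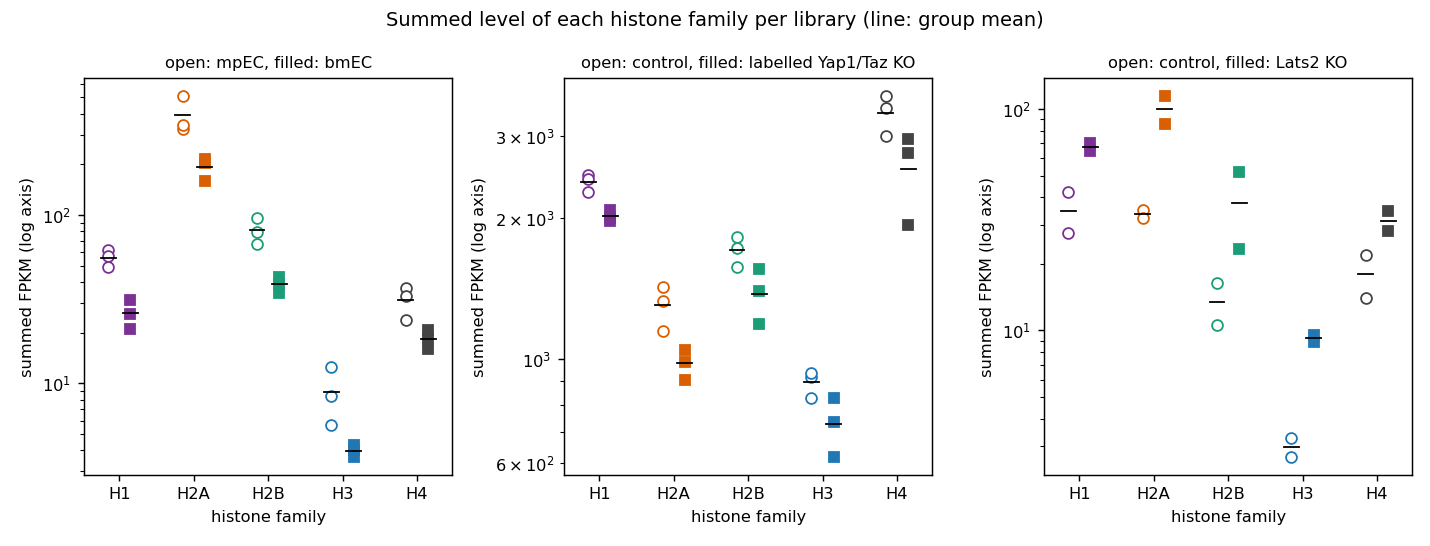
Summed FPKM of each histone family in every library (log axis, with its own range in each panel); open circles are mpECs or controls, filled squares are bmECs, libraries labelled Yap1/Taz iΔEC or Lats2 iΔEC, and lines are group means. In each family all squares lie below all circles in the first 2 panels and above them in the third.

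Among linker histone genes, Hist1h1b was at 29.1, 20.4 and 18.7 FPKM in mpECs and at 8.34, 9.53 and 6.75 FPKM in bmECs. All mpEC libraries lay above all bmEC libraries, and the log2 change was -1.35 (SE 0.18, limma adjusted p = 0.0014). Hist1h1e was at 11.04, 8.84 and 8.54 FPKM in mpECs and at 4.39, 6.502 and 4.998 FPKM in bmECs, again without overlap (log2 change -0.74, SE 0.15, limma adjusted p = 0.0104). Hist1h1a fell as well, by 1.16 on the log2 scale (limma adjusted p = 0.0060), at levels of 0.283 to 3.25 FPKM. Hist1h1c, which also gives polyadenylated mRNA, was at 16.7, 15.7 and 27.3 FPKM in mpECs and at 11.5, 14.8 and 7.95 FPKM in bmECs. Its groups did not overlap, but it missed the threshold (log2 change -0.74, SE 0.25, limma adjusted p = 0.0716).

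The highest members of all were a pair of H2A genes that share 93.5% of the 50-base stretches of Hist1h2ao, so their reads may not be fully told apart. Hist1h2ao was at 299, 188 and 201 FPKM in mpECs and at 114, 128 and 90.4 FPKM in bmECs (log2 change -1.03, SE 0.19, limma adjusted p = 0.0069). Hist1h2ap was at 153, 94.4 and 103 FPKM in mpECs and at 62.5, 60.1 and 49.3 FPKM in bmECs (log2 change -0.99, SE 0.18, limma adjusted p = 0.0064). In both genes the first mpEC library was the highest, and no bmEC library reached the lowest mpEC library. Hist1h2ae (log2 change -1.14, SE 0.15, limma adjusted p = 0.0012) and Hist1h2ai (log2 change -0.70, limma adjusted p = 0.0412) fell too. Hist3h2a, from cluster 3, overlapped between groups, with 10.1, 12.04 and 14.4 FPKM in mpECs and 11.1, 11.2 and 9.18 FPKM in bmECs (log2 change -0.19, limma adjusted p = 0.370).

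Of 8 tested H2B genes, 5 fell. Hist1h2bc, the most abundant of them, was at 45.0, 35.1 and 47.0 FPKM in mpECs and at 22.8, 28.9 and 19.2 FPKM in bmECs (log2 change -0.83, SE 0.16, limma adjusted p = 0.0090). Hist1h2bm, whose promoter is printed above, had the largest change of all called members, with 15.5, 9.73 and 6.22 FPKM in mpECs and 2.23, 2.497 and 2.45 FPKM in bmECs (log2 change -1.68, SE 0.26, limma adjusted p = 0.0031). The bmEC libraries were close to each other, while the mpEC libraries were spread. Hist3h2ba (log2 change -0.57, limma adjusted p = 0.0272), Hist1h2bp (-0.83, limma adjusted p = 0.0412) and Hist1h2bj (-1.12, limma adjusted p = 0.0481) completed the H2B genes that fell.

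Among H3 genes, Hist1h3g was at 3.36, 2.08 and 1.17 FPKM in mpECs and at 0, 0.399 and 0.481 FPKM in bmECs (log2 change -1.27, limma adjusted p = 0.0128), and Hist1h3i fell by 0.83 on the log2 scale (limma adjusted p = 0.0230). Hist1h3g, Hist1h3i, Hist1h1a and Hist1h2bj rested on fewer than 30 recovered reads in every library. Hist1h3e was the only tested member with a change above 0 (log2 change 0.11, limma adjusted p = 0.774), and its groups overlapped. Of 6 tested H4 genes only Hist1h4i was called, at 13.3, 10.5 and 15.1 FPKM in mpECs and 9.28, 8.86 and 7.28 FPKM in bmECs (log2 change -0.55, SE 0.15, limma adjusted p = 0.0307). The other tested H4 genes had log2 changes of -0.56 to -0.32. Nearest to the limit of 1 FPKM lay Hist1h2ag, tested at a mean of 1.03 FPKM, and Hist4h4, not tested at 0.854 FPKM.

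Markers of other cell types also differed between these groups. The summed osteoblast markers ranged from 247 to 975 FPKM in mpECs and from 45.2 to 60.7 FPKM in bmECs, with 5 of 7 tested markers lower in bmECs. Chondrocyte markers summed to 13.5 to 16.8 FPKM and 0.0116 to 0.0682 FPKM (2 of 2 tested lower), monocyte and macrophage markers to 1023 to 1869 FPKM and 664 to 934 FPKM (2 of 4 lower), and B-cell precursor markers to 206 to 424 FPKM and 169 to 231 FPKM (1 of 8 lower). Sp7, Acan and Sox9 were under 1 FPKM in every library. Erythroid markers summed to 28361 to 52993 FPKM in mpECs and 42654 to 60541 FPKM in bmECs (1 of 9 higher), neutrophil precursor markers to 11716 to 27965 FPKM and 9481 to 13972 FPKM (0 of 9 called by limma) and endothelial markers to 1148 to 1469 FPKM and 1302 to 1335 FPKM (2 higher and 3 lower of 8). The part of these cells in the histone levels was not tested.

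**Figure D3:**
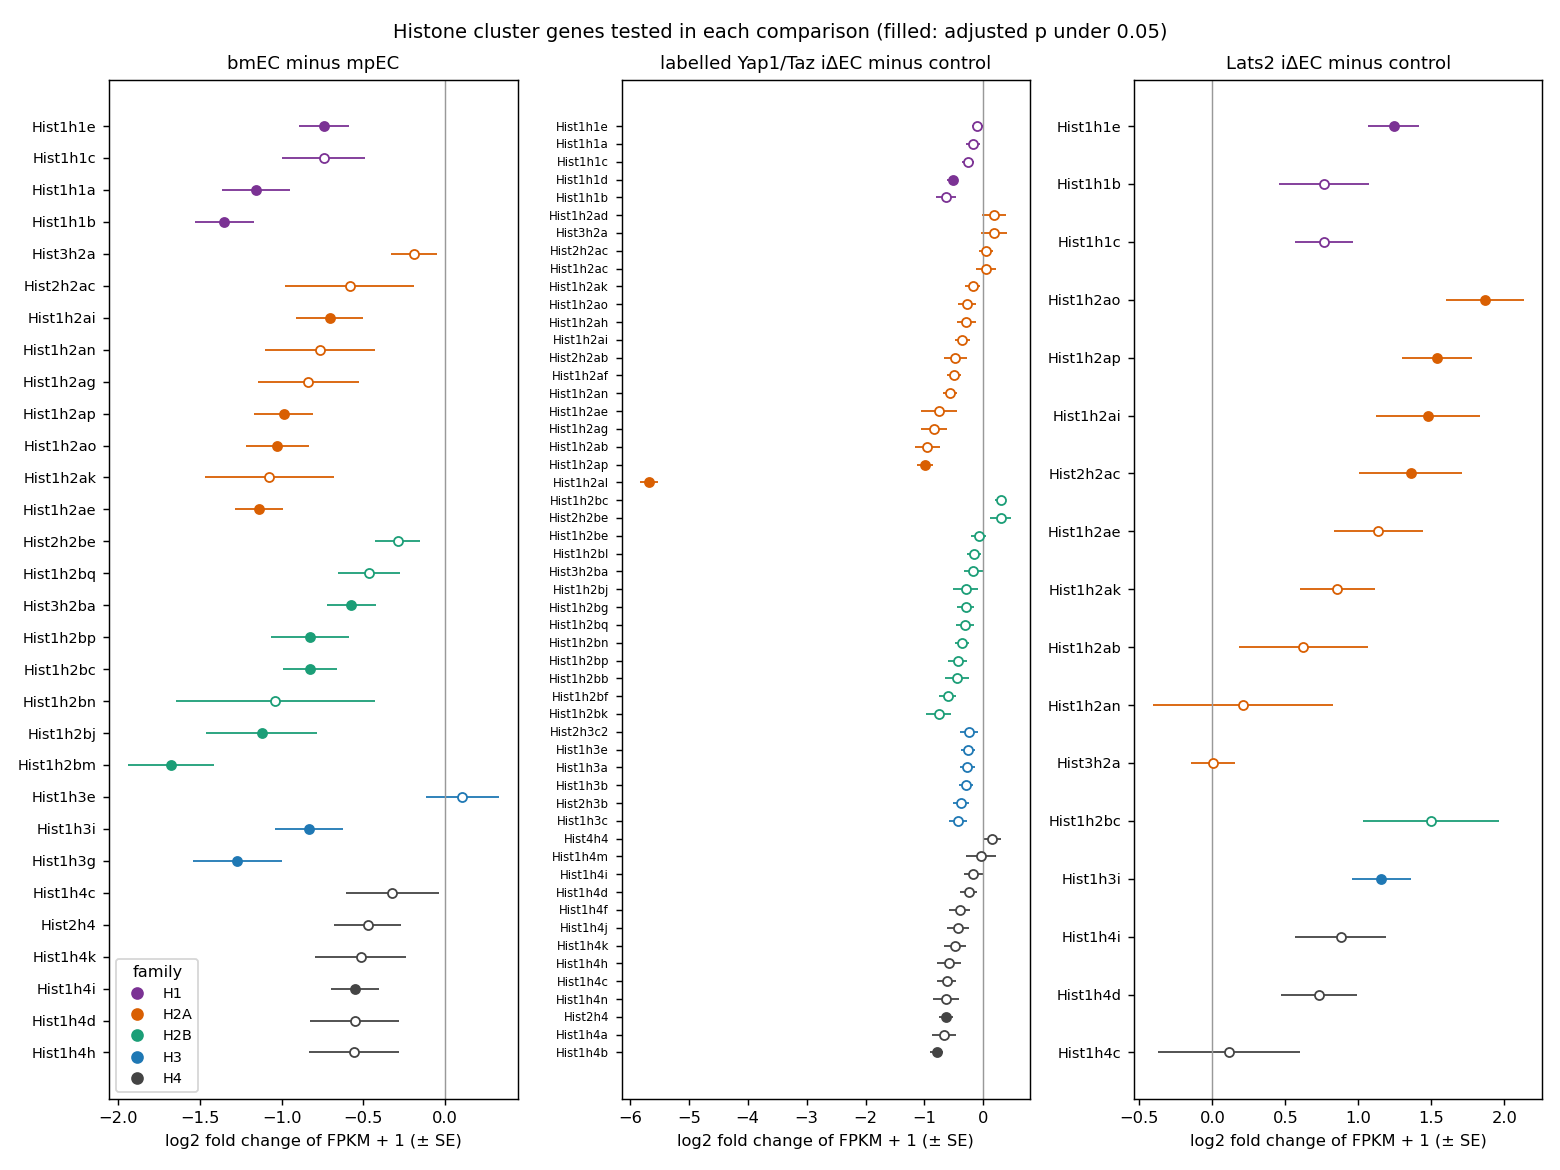
Log2 fold change of FPKM plus 1 of every tested member (x axis, points with SE bars) in the 3 comparisons, sorted by family and by size; filled points have an adjusted p under 0.05. In the first panel 29 of 30 points lie below 0, in the second 46 of 53, and in the third all 17 lie above 0.

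Between controls and libraries labelled Yap1/Taz iΔEC, most histone genes had slightly lower levels in the labelled libraries, and few passed the test. The table listed 60 members, of which 53 were tested, 5 lay above 0 but under the limit and 2 were at 0 in every library. Called lower were 5 of 53 members, against 0.424% of the 11320 genes tested, and called higher were 0, against 0.883% of all genes. At an unadjusted p under 0.05 limma gave 29 lower (8.08% of all genes) and 1 higher (9.79% of all genes), and limma voom on recovered reads called 8 lower (1.34% of all genes) and 0 higher (1.81% of all genes). Without overlap, 26 members were lower (11.3% of all genes) and 1 was higher (12.3% of all genes), and 46 log2 changes were below 0 (51.1% of all genes) and 7 above 0 (48.9% of all genes). The median log2 change was -0.36, beside -0.0047 over all genes. The calls changed with single libraries: 1 member was called without the third control library and without the second or the third labelled library, and 3 without the second control library. Without the first labelled library 6 were called. Calls over all genes moved likewise. They were 0 higher and 1 lower without the second or the third labelled library, and 8 higher and 6 lower without the third control library. They were 11 higher and 9 lower without the second control library, and 215 higher and 78 lower without the first labelled library. The targeted gene Wwtr1 went against the label here, so each direction below is that of the labels.

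The sum over the 60 listed members was 9980, 9348 and 9622 FPKM in the controls and 6726, 7875 and 8363 FPKM in the labelled libraries, a ratio of 0.793. The sums of the families did not overlap either, with ratios of 0.846 for H1, 0.751 for H2A, 0.808 for H2B, 0.815 for H3 and 0.759 for H4. The first labelled library was the lowest in the sums of H2A, H2B, H3 and H4, but not of H1.

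The most abundant members missed the threshold. The H4 gene Hist1h4k was at 1147, 961 and 1177 FPKM in the controls and at 577, 901 and 914 FPKM in the labelled libraries (log2 change -0.48, SE 0.18, limma adjusted p = 0.205). Hist1h1a, the highest linker histone gene, was at 988, 897 and 858 FPKM and at 849, 820 and 757 FPKM (log2 change -0.18, limma adjusted p = 0.459). The H2B gene Hist1h2bn was at 682, 543 and 591 FPKM and at 438, 456 and 514 FPKM (log2 change -0.36, limma adjusted p = 0.161). None of these 3 genes overlapped between groups. The H2A gene Hist1h2ak, at 371, 492 and 363 FPKM against 342, 358 and 372 FPKM, and the H3 gene Hist1h3e, at 479, 475 and 419 FPKM against 336, 381 and 433 FPKM, did overlap.

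The 5 called members came from H1, H2A and H4. Hist1h1d was at 144, 125 and 121 FPKM in the controls and at 91.6, 87.6 and 90.3 FPKM in the labelled libraries (log2 change -0.52, SE 0.10, limma adjusted p = 0.0423). Hist1h4b, 1 of the H4 genes with the GGTCCT arm, was at 50.6, 40.8 and 47.4 FPKM and at 24.4, 28.6 and 25.8 FPKM (log2 change -0.79, SE 0.11, limma adjusted p = 0.0235). Hist2h4, the H4 gene of cluster 2, was at 43.4, 45.6 and 52.6 FPKM and at 26.0, 31.0 and 32.9 FPKM (log2 change -0.64, SE 0.12, limma adjusted p = 0.0406). Hist1h2ap was at 13.8, 11.8 and 13.7 FPKM and at 4.95, 6.92 and 6.44 FPKM (log2 change -0.99, SE 0.13, limma adjusted p = 0.0228). In each of these genes the lowest control library lay above the highest labelled library.

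Hist1h2al differed between the groups by far more than any other member. It was at 98.7, 81.9 and 95.7 FPKM in the controls and at 1.13, 0.452 and 0.931 FPKM in the labelled libraries (log2 change -5.68, SE 0.15, limma adjusted p = 6.32e-08), and the recovered reads ran from 0.897 to 201. The annotation gives Hist1h2al as a processed pseudogene at chr13:51202727-51203065, minus strand, outside the cluster, and 67.6% of its 50-base stretches also occur in other genes. Of 5 tested genes within 500 kb of it, 0 were called by limma. In the mpEC and bmEC libraries Hist1h2al was at 0 to 0.272 FPKM, and in the Lats2 libraries it was listed at 0. Its mean was under 1 FPKM in the labelled libraries, so it passed the limit through the controls, and without it the calls were 4 of 52.

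Of the 7 members known to give polyadenylated mRNA 4 had log2 changes above 0 and 3 below. By limma 0 were called and 2 had an unadjusted p under 0.05, and their median log2 change was 0.15, while the 46 tested members outside this list had a median of -0.41. Hist1h2bc was at 20.3, 19.3 and 21.3 FPKM in the controls and at 26.8, 24.6 and 24.2 FPKM in the labelled libraries. It was the 1 member that was higher without overlap, though not called (log2 change 0.30, SE 0.10, limma adjusted p = 0.141). Hist2h2be (0.29), Hist3h2a (0.18) and Hist4h4 (0.15) also had log2 changes above 0. Hist3h2ba (-0.17) and Hist1h2be (-0.08) lay below 0, as did Hist1h1c, with a log2 change of -0.26 (limma adjusted p = 0.227), with 500.5, 472 and 424 FPKM in the controls and 380.002, 388 and 394 FPKM in the labelled libraries. The difference between the lists was not tested. Members outside the list can also have annotated sequence far past the stem-loop, such as Hist1h1d with 4884 bases, so the lists may not part the 2 kinds of mRNA. Nearest to the limit were Hist1h2ad, tested at a mean of 1.89 FPKM, and Hist1h1t, not tested at 0.370 FPKM.

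Beside these values, osteoblast markers summed to 37.9 to 57.8 FPKM in the controls and 9.14 to 26.6 FPKM in the labelled libraries (3 of 6 tested lower, with Sp7 and Alpl under 1 FPKM in every library). B-cell precursor markers summed to 241 to 276 FPKM and 190 to 197 FPKM (0 of 9 called by limma), and endothelial markers to 508 to 519 FPKM and 597 to 693 FPKM (0 of 8 called by limma). Monocyte and macrophage markers summed to 713 to 1001 FPKM and 607 to 709 FPKM (0 of 5 called by limma), megakaryocyte markers to 159 to 178 FPKM and 174 to 196 FPKM (1 of 6 higher), neutrophil precursor markers to 2290 to 2926 FPKM and 1843 to 4105 FPKM (0 of 9 called by limma), and erythroid markers to 4670 to 5595 FPKM and 4467 to 6708 FPKM (0 of 9 called by limma). In the single tested chondrocyte marker limma made 0 calls, and the list summed to 1.90 to 5.30 FPKM and 0.839 to 3.01 FPKM, with Acan, Sox9 and Matn1 under 1 FPKM in every library. Their part in the histone levels was not tested.

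**Figure D4:**
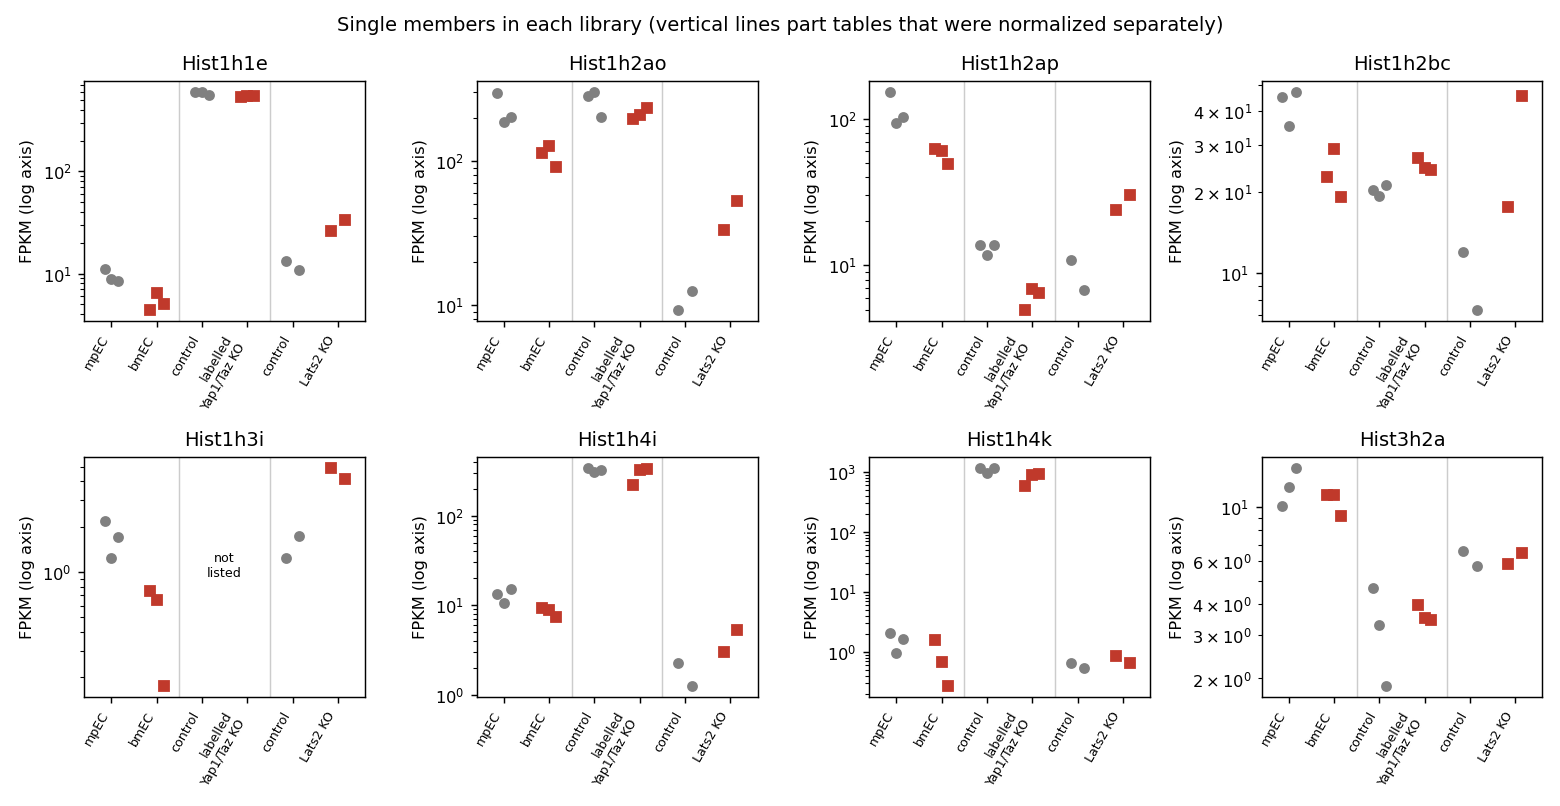
FPKM of 8 members in each of the 16 libraries (log axis, with its own range in each panel); gray circles are mpECs or controls, red squares are bmECs, libraries labelled Yap1/Taz iΔEC or Lats2 iΔEC, and vertical lines part the tables. Hist1h2ap is lower in bmECs and in the labelled libraries and higher in Lats2 iΔEC, whereas Hist3h2a overlaps between the groups in every table, and Hist1h3i is not listed in the Yap1/Taz table.

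In Lats2 iΔEC the direction was the opposite one. Of the 70 listed members 17 were tested, 39 lay above 0 but under the limit and 14 were at 0 in every library. Called higher in Lats2 iΔEC were 6 of 17 members, against 11.8% of the 12451 genes tested, and called lower were 0, against 9.98% of all genes. At an unadjusted p under 0.05 limma gave 12 higher (20.1% of all genes) and 0 lower (18.5% of all genes), and limma voom on recovered reads called 4 higher (10.9% of all genes) and 0 lower (17.4% of all genes). The groups did not overlap in 13 members, all higher in Lats2 iΔEC, against 34% of all genes higher and 34.2% lower, and 17 of 17 log2 changes were above 0 (49.8% of all genes) and 0 below 0 (50.2% of all genes). The median log2 change was 0.88, beside -0.0031 over all genes, and the smallest was 0.0021. With no limit on mean level, 43 of 56 members had changes above 0 and 13 below. The median was then 0.32, beside 0.00097 over all genes. Scaled to a fixed total per library, 15 of the 17 changes were above 0 and 2 below. With 2 libraries in each group, the calls rested on single libraries: 0 members were called without either control library or without the second Lats2 iΔEC library, and 5 without the first Lats2 iΔEC library. When either control library was left out, 0 of all genes were called.

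The sum over all 70 listed members was 118 and 87.7 FPKM in the controls and 217 and 274 FPKM in Lats2 iΔEC, a ratio of 2.39. The sums of the families did not overlap, with ratios of 1.95 for H1, 2.97 for H2A, 2.79 for H2B, 3.09 for H3 and 1.74 for H4. The H3 sums over 12 genes were low, at 2.69 and 3.28 FPKM against 8.89 and 9.53 FPKM. Hist1h3i, the 1 tested H3 gene, made up 49.6% of the H3 sum. Scaled to a fixed total per library, the H4 sums overlapped.

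The 3 called members of highest level were Hist1h2ao, Hist1h2ap and Hist1h1e. Hist1h2ao was at 9.21 and 12.6 FPKM in the controls and at 33.1 and 53.1 FPKM in Lats2 iΔEC (log2 change 1.87, SE 0.27, limma adjusted p = 0.0140). Hist1h2ap was at 10.8 and 6.80 FPKM and at 24.0 and 30.2 FPKM (log2 change 1.54, SE 0.24, limma adjusted p = 0.0163). Hist1h1e was at 13.2 and 10.8 FPKM and at 26.2 and 33.3 FPKM (log2 change 1.24, SE 0.17, limma adjusted p = 0.0134). The second Lats2 iΔEC library was the higher one in all 3 genes. Hist1h3i, Hist1h2ai and Hist2h2ac were called too, with log2 changes of 1.16 (limma adjusted p = 0.0208), 1.48 (limma adjusted p = 0.0409) and 1.36 (limma adjusted p = 0.0495), but each rested on fewer than 30 recovered reads in every library. Hist1h2ai had a mean under 1 FPKM in the controls, and without members of this kind the calls were 5 of 15.

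Among members that missed the threshold, the H2B gene Hist1h2bc was at 12.02 and 7.31 FPKM in the controls and at 17.6 and 45.3 FPKM in Lats2 iΔEC (log2 change 1.498, SE 0.47, limma adjusted p = 0.0755). Its groups did not overlap, but the Lats2 iΔEC libraries were far apart, and it made up 80.4% of the H2B sum. Hist1h1b was at 18.1 and 9.05 FPKM and at 23.5 and 21.6 FPKM (limma adjusted p = 0.137), and the H4 gene Hist1h4d was at 14.3 and 11.1 FPKM and at 27.6 and 16.9 FPKM (limma adjusted p = 0.105). Hist3h2a overlapped between groups, at 6.56 and 5.74 FPKM against 5.86 and 6.46 FPKM. Nearest to the limit were Hist1h2ak, tested at a mean of 1.14 FPKM, and Hist1h2bm, not tested at 0.811 FPKM.

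Summed markers of blood cell types were lower in Lats2 iΔEC. Neutrophil precursor markers summed to 1928 to 2883 FPKM in the controls and 703 to 847 FPKM in Lats2 iΔEC (6 of 9 lower), B-cell precursor markers to 98.0 to 117 FPKM and 25.8 to 36.9 FPKM (6 of 8 lower), and erythroid markers to 2543 to 3784 FPKM and 276 to 1431 FPKM (3 of 9 lower). Monocyte and macrophage markers summed to 408 to 501 FPKM and 58.5 to 268 FPKM (0 of 4 called by limma). Megakaryocyte markers summed to 29.9 to 112 FPKM and 9.72 to 12.1 FPKM (1 of 5 lower). Osteoblast markers overlapped, at 13.7 to 84.6 FPKM and 43.1 to 68.5 FPKM (1 of 6 higher). Chondrocyte markers overlapped too, at 0.0817 to 11.1 FPKM and 0.132 to 1.15 FPKM (0 of 1 called by limma). Endothelial markers summed to 2058 to 2225 FPKM and 2144 to 2155 FPKM (1 higher and 2 lower of 8). Their part in the histone levels was not tested.

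Set side by side, 1 member, Hist1h2ap, was called in all 3 comparisons: lower in bmECs, lower in the libraries labelled Yap1/Taz iΔEC and higher in Lats2 iΔEC. It shares 93.07% of its 50-base stretches with Hist1h2ao, so its level depends on how reads were split. In the Yap1/Taz comparison Hist1h2ao had a mean of 238 FPKM and was not called (limma adjusted p = 0.373). There Hist1h2ap was called in 3 of 6 fits with single libraries left out. Another 4 members (Hist1h1e, Hist1h2ai, Hist1h2ao and Hist1h3i) were called lower in bmECs and higher in Lats2 iΔEC. Called only in bmECs were 10 members, only in the libraries labelled Yap1/Taz iΔEC 4 members (Hist1h1d, Hist1h2al, Hist1h4b and Hist2h4) and only in Lats2 iΔEC Hist2h2ac. Many of these were not tested elsewhere. Hist1h1d, Hist1h2al and Hist1h4b were not tested in the other comparisons, nor Hist2h4 in the Lats2 comparison. Of the members called only in bmECs, Hist1h1a, Hist1h2bj, Hist1h2bm, Hist1h2bp, Hist1h3g and Hist3h2ba were not tested in the Lats2 comparison. Hist1h2bm, Hist1h3g and Hist1h3i were not listed for the Yap1/Taz libraries. Whether the effects differ between comparisons was not tested.

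H2A and H2B genes often lie head to head and can share a promoter region. There were 14 such pairs, with starts 173 to 306 bases apart. In the bmEC comparison both genes were tested in 5 pairs, and both changes were below 0 in each of them: Hist1h2ak and Hist1h2bn had log2 changes of -1.08 and -1.04, Hist1h2an and Hist1h2bp of -0.77 and -0.83, Hist1h2ag and Hist1h2bj of -0.84 and -1.12, Hist1h2ao and Hist1h2bq of -1.03 and -0.46, and Hist2h2ac and Hist2h2be of -0.58 and -0.29. In the Yap1/Taz comparison both genes were tested in 10 pairs and had changes of the same sign in 9, the exception being Hist1h2ad and Hist1h2bf (0.19 and -0.61, neither called by limma). In the Lats2 comparison both genes were tested in 0 pairs. Of all tested members, 29 of 30 changes in bmECs and 46 of 53 in the Yap1/Taz comparison were below 0. Members that are not paired would thus mostly share a sign too, and a tie within pairs was not tested.

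Genes of the cell cycle and of histone supply were examined beside the members. Between mpECs and bmECs, 21 of 34 tested genes of DNA replication were lower in bmECs and 0 were higher by limma, among them Prim1 (log2 change -0.98), a subunit of the primase, Gins2 (-0.85) and Cdc45 (-0.79), parts of the replicative helicase, and Tk1 (-0.81), which makes thymidine nucleotides. All 22 mitosis genes were lower in bmECs, with the kinesins Cenpe (-1.20) and Kif20a (-1.19) first. Of 12 histone chaperone genes 3 were lower (Chaf1b, -0.83; Nasp, -0.55; Supt16, -0.37) and 1 was higher (Ssrp1, 0.34). Of 14 genes of histone mRNA synthesis and processing, Ccne2 was lower (-0.93) and Cpsf3, the nuclease that cuts histone pre-mRNA, was higher (0.33). The median log2 changes of the 4 lists were -0.48, -0.88, -0.34 and -0.03 in this order.

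In the libraries labelled Yap1/Taz iΔEC, limma called 0 genes of any of these lists. Their median log2 changes were -0.15 for DNA replication (35 tested), -0.19 for mitosis (22 tested), -0.12 for chaperones (13 tested) and -0.05 for histone mRNA synthesis and processing (17 tested).

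In Lats2 iΔEC 7 of 22 mitosis genes were higher and 0 lower, among them Cdk1 (log2 change 1.00) and Cdc20 (0.93). Of 35 genes of DNA replication 3 were higher (Gins1, 0.83; Tyms, 0.61; Pcna, 0.46) and 1 was lower (Pola2, -0.77), and of 13 chaperone genes limma called 0. The median log2 changes were 0.47 for mitosis, 0.16 for DNA replication, 0.10 for chaperones and -0.14 for the 16 tested genes of histone mRNA synthesis and processing, of which 1, Slbp, was called. Slbp, whose product binds the stem-loop, was lower while the histone genes were higher. It was at 43.0 and 33.1 FPKM in the controls and at 24.9 and 18.1 FPKM in Lats2 iΔEC (log2 change -0.80, SE 0.21, limma adjusted p = 0.0499), without overlap and close to the threshold. In the other comparisons Slbp overlapped between groups (log2 change 0.12 in bmECs, limma adjusted p = 0.372, and 0.15 in the labelled libraries, limma adjusted p = 0.503). Npat had a log2 change of -0.31 in bmECs (limma adjusted p = 0.0673), of -0.05 in the labelled libraries and of -0.21 in Lats2 iΔEC.

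**Figure D5:**
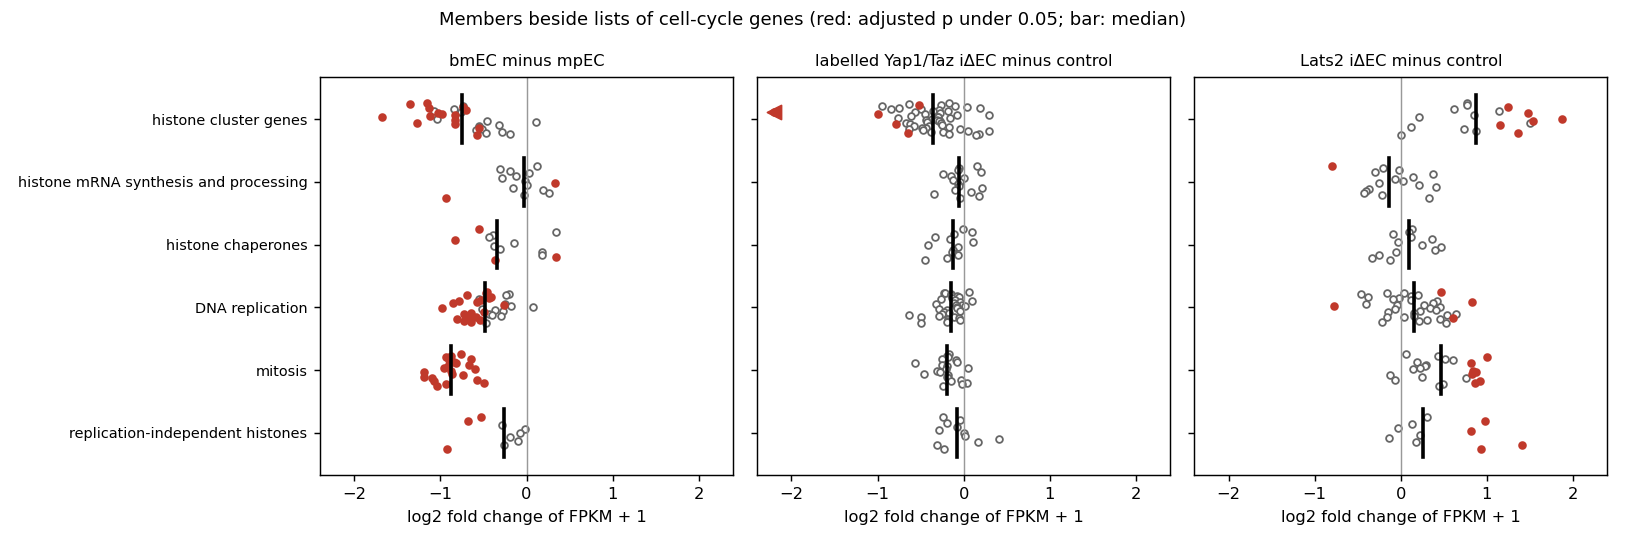
Log2 fold change of FPKM plus 1 (x axis) of the tested members and of 5 lists of related genes in the 3 comparisons; red points have an adjusted p under 0.05, bars are medians, and the triangle at the left edge stands for Hist1h2al, whose value of -5.68 lies beyond the axis. The medians of the members are -0.75, -0.36 and 0.88, and those of the mitosis genes -0.88, -0.19 and 0.47.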

How the data were processed

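Total RNA of sorted bone endothelial cells had been sequenced by the authors, and per the labels and the submitters' processing notes reads were aligned with TopHat and counted with HTSeq 0.6.1 on GRCm38 (mm10). The deposited values are FPKM per gene. How counts became FPKM, the strand setting and the handling of reads shared by copies are not given in the sources used here. The bmEC and Lats2 tables were joined by gene name (2 names altered to dates by a spreadsheet were dropped), and the Yap1/Taz lists by Ensembl identifier, of which 228 of 21603 had no symbol. Columns without a sample numbered 0.

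Each comparison was fitted separately with limma 3.58.1 (R 4.3.3) on log2(FPKM + 1) with an intensity trend, over every gene averaging 1 FPKM or more across both groups, and p-values were adjusted by the Benjamini-Hochberg method over all of these genes. A gene was called at an adjusted p under 0.05. The added 1 understates the change of low genes. FPKM are not counts, and reads were recovered from the smallest steps of the values and exon lengths of GENCODE M21. Of the low values, 62.3 to 70.0% lay within 0.02 of a whole read, against 4% by chance, so these reads served only to describe depth and for a voom fit. On simulated data with 200 changed genes the fit recovered 88.5% of them among 11422 genes (bmEC comparison), 89.5% among 11320 (Yap1/Taz) and 43.0% among 12451 (Lats2). The changes set had an absolute log2 size of at least 1, in genes above a set mean level. These shares therefore do not hold for smaller changes, such as those of most members in the Yap1/Taz comparison.

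The members, the gene lists and the comparisons were chosen with earlier results of these data known. Named genes were the 3 most abundant members of each family, the 6 called members with the largest change in each direction, the members nearest to the limit, the polyadenylated and testis lists, the targeted genes, Slbp and Npat, and up to 4 called genes of each list and direction. Members outside this rule were named where a count or a pattern needed them, after their values were seen. Alternatives were other pseudocounts, filters, scalings and thresholds, a replicate block, voom, and the omission of each library. Promoters came from RefSeq (GRCm38.p6), and stem-loops and 50-base stretches from the GENCODE transcripts.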

Additional observations from a re-analysis of the deposited data

How the results depend on the processing

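Every called member kept its direction under every alternative in which it was tested. At an adjusted p under 0.05, of 15 members lower in bmECs 9 were called in every alternative in which they were tested (3 of these, Hist1h1a, Hist1h2ae and Hist1h3g, were not tested in every one), of 5 lower in the libraries labelled Yap1/Taz iΔEC 1 was (Hist1h2al), and of 6 higher in Lats2 iΔEC 0 were. The 15 of 30 became 9 of 11 with a filter at 5 FPKM, where 824 of 6839 genes were called lower. At an adjusted p under 0.01 with a log2 change over 0.5 they became 7. With single libraries left out they ran from 8 of 25 (without the first mpEC library) to 13. The 13 were of 30 without the second mpEC library and of 29 without the third. The 5 of 53 became 1 of 58 without a filter, where 1 of all 16044 genes was called lower. They became 8 of 53 with quantile normalization (64 of 11320 genes lower) and 8 of 53 with voom (152 of 11310 genes lower). They became 1 at the strict threshold, and ran from 1 (without control library 3 or without labelled library 2 or 3) to 6 with single libraries left out. The 6 became 0 at the strict threshold and ran from 0 to 5 with single libraries left out, where the lone sample was assumed to vary like the other group. The log2 ratio of the summed H3 genes in Lats2 iΔEC was 1.63, and 1.36 on a TPM scale.

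Scaling moved the calls over all genes: 55.2% were higher in bmECs by FPKM, 32.0% on a TPM scale and 27.0% with voom, in the Yap1/Taz comparison 67.6% by FPKM and 57.4% with voom, and in Lats2 iΔEC 54.1%, 31.2% and 38.4%. The median of all genes moved to -0.14 (bmEC) and -0.26 (Lats2) on the TPM scale and to -0.20 and -0.14 with voom. The members called were then 16 and 18 of 30 lower in bmECs, beside 1871 of 11422 and 2415 of 10789 genes. In Lats2 iΔEC 5 and 4 of 17 members were called higher, beside 893 of 12451 and 1271 of 11710 genes.

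The sign turned in results that were not called, and the cause was not tested. With single libraries left out, log2 changes ran from -0.134 to 0.305 for Hist1h3e in bmECs, and in the Yap1/Taz comparison from -0.271 to 0.0220 for Hist1h4i, from -0.0839 to 0.407 for Hist3h2a, from -0.345 to 0.0015 for Hist3h2ba, from -0.136 to 0.0773 for Yap1 and from -0.145 to 0.0911 for Npat. In the Lats2 comparison they ran from -0.0807 to 0.0849 for Hist3h2a and from -0.431 to 0.659 for Hist1h4c. Slbp in bmECs was at -0.0265 on the TPM scale and -0.0759 with voom. Hist3h2a in Lats2 iΔEC was at -0.254 on the TPM scale, -0.000328 with median ratio scaling and -0.121 with voom, and Hist1h4c at -0.0126 on the TPM scale.

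Pairing by replicate number was examined by correlating, across genes, the deviations of samples from their group mean. For bmECs and mpECs, samples with the same replicate number had correlations of 0.307, 0.0876 and 0.102, all above 0. Samples with different numbers ran from -0.206 to 0.115 there. Deviations cancel within a group, so these values depend on each other. Same-number correlations were -0.175, -0.123 and -0.155 for the Yap1/Taz libraries and 0.0651 for both Lats2 pairs. With 2 libraries per group these Lats2 values are equal by construction and decide nothing. The methods name no pairing, so the main fit did not use the numbers as pairs. With the replicate number as a block the counts were 18 of 30 lower, 4 of 53 lower and 7 of 17 higher. Over all genes they were 1475 of 11422, 16 of 11320 and 1457 of 12451 in the same directions.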

Other observations

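The replication-independent histone genes, which are transcribed in and outside S phase and mostly give polyadenylated mRNA, were also measured. Between mpECs and bmECs 3 of 9 tested were lower in bmECs: Cenpa (log2 change -0.92), the H3 variant of centromeres, H2afz (-0.68), an H2A variant found at promoters, and H2afx (-0.53), which is phosphorylated at DNA breaks. In Lats2 iΔEC 4 of 10 were higher, H1fx (1.41), H2afz (0.98), Cenpa (0.93) and H2afj (0.81), and in the libraries labelled Yap1/Taz iΔEC limma called 0 of 11. The median log2 changes were -0.27, 0.26 and -0.08 in this order.

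The pseudogene Hist1h2aj was at 1.25, 0.518 and 1.06 FPKM in mpECs and at 0, 0.546 and 0.220 FPKM in bmECs, below the limit for a test, and Hist3h2bb-ps was at 0.174, 0.862 and 0.443 FPKM in mpECs and listed at 0 in all 3 bmEC libraries.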
